A study of Zea mays with 12 samples.

Results

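This account concerns the nuclear genes of maize that stood high in nitrogen-deprived control roots and low in all 3 other groups of a root transcriptome study. They were chosen from 1 deposited expression value per gene and group (FPKM, a count of sequenced fragments per transcript, corrected for transcript length and for the size of the library). A gene was a member when the control reached at least 5 FPKM and its log2(FPKM + 1) lay at least 1 above that of each other group. The other 3 groups also had to lie within a range under 1 of each other on that scale. Of 26451 entries in the table, 26061 were nuclear gene models, and 60 of these were members. The pattern that names the set is therefore the rule that chose it, every value used for the choice is given below as a description, and 0 tests were made.

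The study sequenced poly(A) RNA of primary roots of the maize inbred line B73, the line of the reference genome, in 12 samples. Seedlings were germinated for 3 days in the dark and then grown for 24 h in 1 of 4 nutrient solutions. The nitrate group received 1 mM nitrate. The TIS108 group received 2 µM TIS108 in the solution without nitrogen, the nitrate with PCIB group received 1 mM nitrate and 10 µM PCIB, and the control group received the solution without nitrogen and neither agent. Each group had 3 biological replicates of 4 to 8 pooled plants. Because the table holds 1 value per group, no difference below has a replicate check, an SD or a p-value, and the depth behind each value is unknown. In bulk roots, fewer cells of a type and less RNA per cell cannot be told apart.

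Nitrate is for plants both the main mineral source of nitrogen and a signal that changes transcription in roots. Roots that lack nitrogen raise the capacity for nitrogen uptake and change their branching. Strigolactones are hormones made from carotenoids, formed in larger amounts by nutrient-starved roots of many species, and exuded into the soil. TIS108, a triazole-type compound, inhibits their synthesis. PCIB, p-chlorophenoxyisobutyric acid, inhibits the action of auxin, the hormone that controls the start and outgrowth of lateral roots. Both the control and the TIS108 roots were without nitrogen, so the members were high in 1 of the 2 nitrogen-deprived groups and not in the other.

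None of the members could be given a gene name, since 0 of the 26061 nuclear identifiers matched the RefSeq gene table used here. They are given by identifier, with no role attached, and the lists of nitrate, strigolactone and auxin genes could not be filled. No sequence is shown for the same reason. The plastid photosystem genes psbA and psaB, which mark green tissue, were low in every group, as were all 15 plastid entries, of which 0 reached 5 FPKM in the control. Plastid transcripts largely lack stable poly(A) tails and the libraries are of poly(A) RNA, so these levels do not test the labelled tissue. psbA was at 0.609 FPKM with nitrate, 0.433 with TIS108, 1.04 with nitrate and PCIB and 0.487 in the control. psaB was at 0.0999 FPKM with nitrate, 0.0823 with TIS108, 0.222 with nitrate and PCIB and 0.117 in the control.

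The rule was met by few genes. At 5 FPKM or more in the control there were 14708 nuclear gene models. Of these, 534 (3.63%) were at least 2-fold lower with nitrate on the FPKM + 1 scale, 265 (1.80%) with TIS108 and 296 (2.01%) with nitrate and PCIB. All 60 members are among each of these counts by the rule, so nothing is read from that. In all 3 groups together 69 genes were lower by this limit, and 9 of them were left out because the other 3 groups differed too widely. The 3 comparisons share the control column, so a high control value alone lowers all 3 differences at once.

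Across the members, the median level was 2.36 FPKM with nitrate, 3.72 FPKM with TIS108, 3.23 FPKM with nitrate and PCIB and 10.9 FPKM in the control. The lowest and highest members stood at 0.543 and 75.5 FPKM with nitrate and at 1.02 and 40.4 FPKM with TIS108. They stood at 0.736 and 55.2 FPKM with nitrate and PCIB and at 5.03 and 167 FPKM in the control. Levels of single genes thus covered a wide span in every group, and the highest member of each treated group stood above the median of the control.

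**Figure D1:**
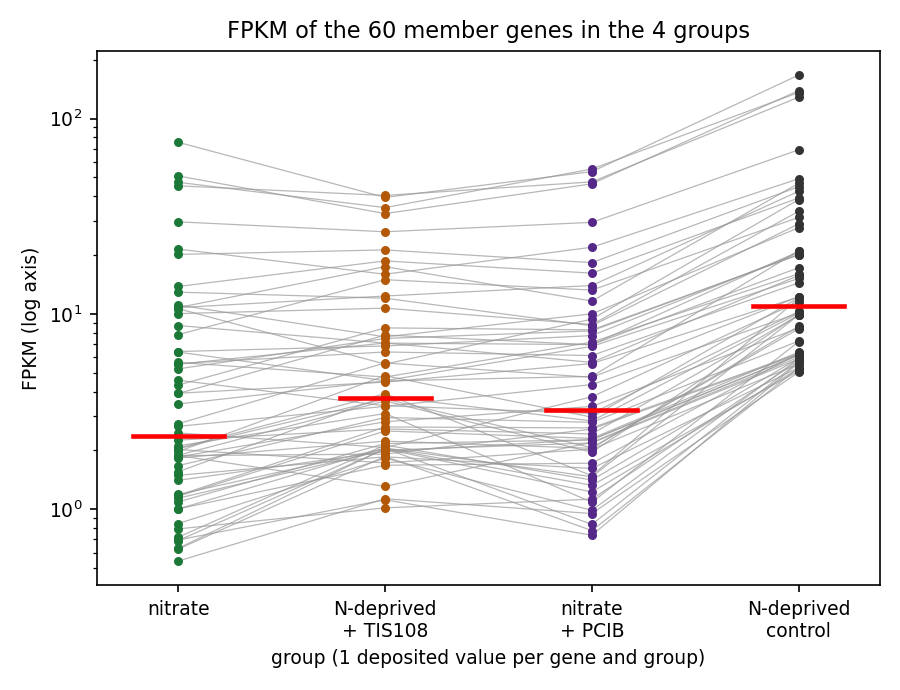
FPKM on a log axis of each of the 60 members in the 4 groups. Each point is the deposited value of 1 gene in 1 group, grey lines join the values of 1 gene, and red bars are medians over the genes, at 2.36 FPKM with nitrate, 3.72 with TIS108, 3.23 with nitrate and PCIB and 10.9 in the control; every line ends highest in the control, as the rule requires.

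Differences from the control were of similar size in the 3 groups and widest with nitrate. The median log2 difference over the members was -1.71 with nitrate, -1.31 with TIS108 and -1.39 with nitrate and PCIB. Over all 14708 genes at the same control level the medians were 0.04, 0.00375 and -0.01. As plain ratios of FPKM, nitrate gave 0.237 of the control level in the median member, TIS108 0.337 and nitrate with PCIB 0.333. The members' differences reached from -2.44 to -1.02 with nitrate, from -2.60 to -1.0004 with TIS108 and from -2.39 to -1.01 with nitrate and PCIB. On plain ratios the median member was more than 4-fold lower with nitrate. On the FPKM + 1 scale only a few members were at least 4-fold lower: 7 with nitrate, 4 with TIS108 and 2 with nitrate and PCIB. Among all genes at this control level these limits were passed by 0.231%, 0.0476% and 0.122%. Since the members were chosen on these same differences, these shares do not set the members apart.

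**Figure D2:**
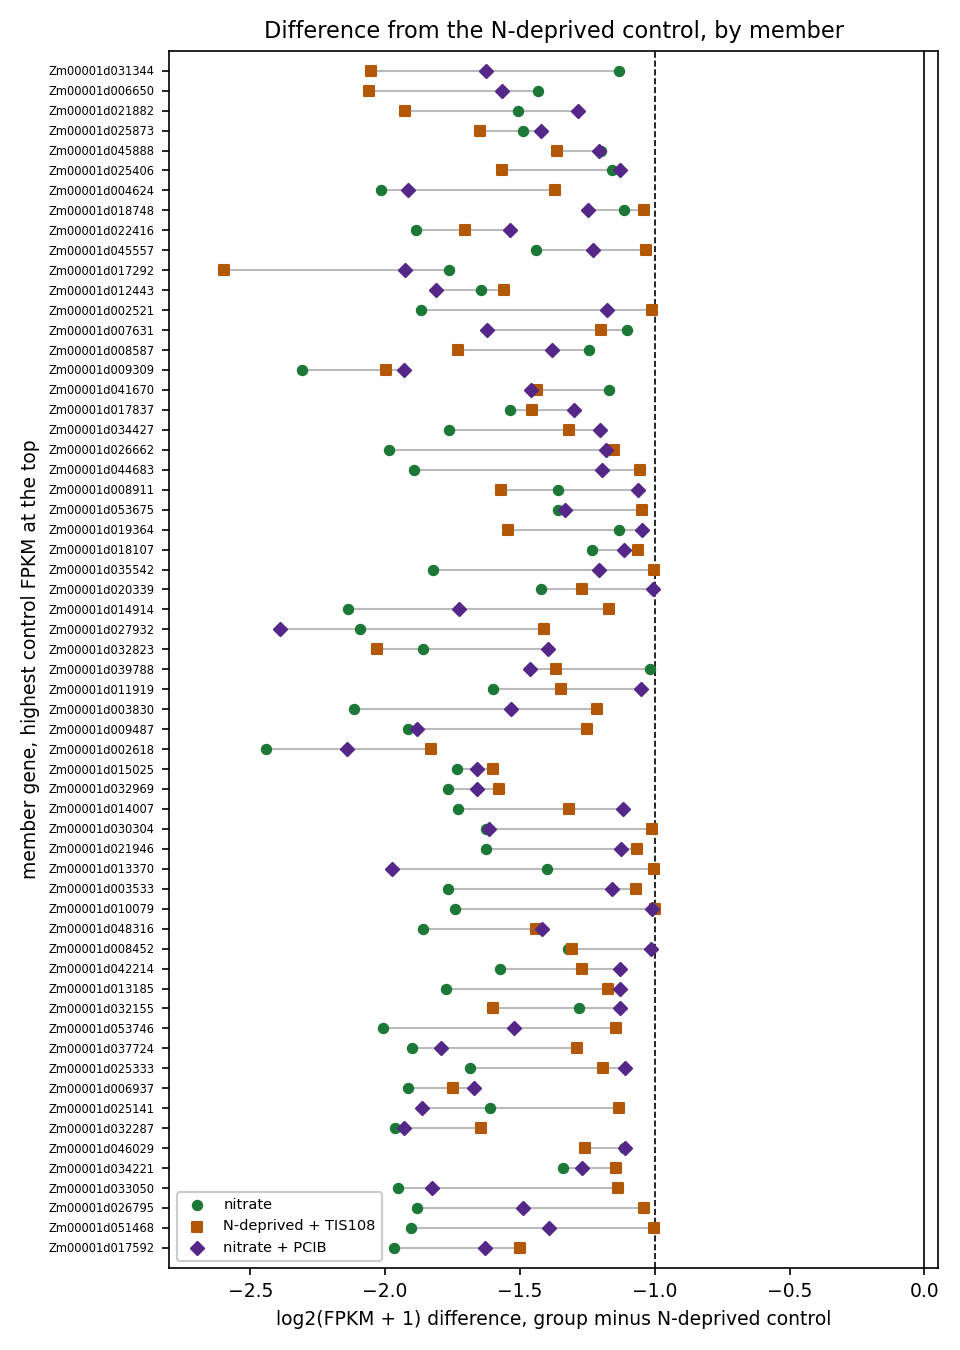
Log2(FPKM + 1) difference from the N-deprived control for each member, with nitrate (circles), TIS108 (squares) and nitrate plus PCIB (diamonds); genes run downward from the highest to the lowest control FPKM and the dashed line is the limit of -1. All points lie left of the limit, and grey bars join the 3 groups of a gene, whose range was under 1.

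The members furthest below the control with nitrate were Zm00001d002618 and Zm00001d009309. Zm00001d002618 was at 1.00 FPKM with nitrate, 2.06 with TIS108, 1.47 with nitrate and PCIB and 9.87 in the control. Its log2 differences were -2.44, -1.83 and -2.14, so that it also had the second widest difference with nitrate and PCIB. Zm00001d009309 was at 3.46 FPKM with nitrate, 4.54 with TIS108, 4.79 with nitrate and PCIB and 21.1 in the control. Its 3 treated values lay close together, and no member had a wider gap between the control and the nearest other group, at 1.93 on the log2 scale.

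With TIS108 the widest differences were those of Zm00001d017292 and Zm00001d006650, both lowest in the TIS108 group. Zm00001d017292 was at 10.6 FPKM with nitrate, 5.53 with TIS108, 9.40 with nitrate and PCIB and 38.5 in the control. The value with TIS108 was thus 0.144 of the control, and the other 2 treated values lay close to each other above it. Zm00001d006650 was at 50.8 FPKM with nitrate, 32.6 with TIS108, 46.3 with nitrate and PCIB and 139 in the control, and was the second most abundant member in the control by FPKM. Its log2 differences were -1.43 with nitrate, -2.06 with TIS108 and -1.57 with nitrate and PCIB.

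With nitrate and PCIB the widest difference was that of Zm00001d027932, at 2.05 FPKM with nitrate, 3.90 with TIS108, 1.48 with nitrate and PCIB and 12.0 in the control. Its log2 difference was -2.39 with nitrate and PCIB and -1.41 with TIS108, so that its treated groups lay as far apart as the rule nearly allows. Zm00001d031344 had the highest control value of all members, 167 FPKM. It was at 75.5 FPKM with nitrate, 39.5 with TIS108 and 53.5 with nitrate and PCIB. This gene lay near the limit with nitrate (-1.13) and far from it with TIS108 (-2.05).

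The flattest members were Zm00001d015025 and Zm00001d046029, whose treated values hardly differed. Zm00001d015025 was at 2.26 FPKM with nitrate, 2.57 with TIS108, 2.43 with nitrate and PCIB and 9.82 in the control, a log2 range of 0.13 over the 3 treated groups. Zm00001d046029 was at 2.02 FPKM with nitrate, 1.73 with TIS108, 2.03 with nitrate and PCIB and 5.53 in the control, a range of 0.15. The range was under 0.25 in 10 members, under 0.5 in 27 and under 0.75 in 46, with a median of 0.55. Over all 14708 genes at this control level the median range was 0.25. The rule itself uses this range. The treated levels also differed, with a median with nitrate of 2.36 FPKM in members and 14.3 FPKM in all these genes. Nothing is therefore read from the difference in range.

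Genes close to the limits show how narrow the choice was. At the level limit, Zm00001d017592 was inside, at 0.543 FPKM with nitrate, 1.13 with TIS108, 0.950 with nitrate and PCIB and 5.03 in the control. Zm00001d019398 was outside, at 0.268 FPKM with nitrate, 0.708 with TIS108, 0.319 with nitrate and PCIB and 4.94 in the control. At the difference limit, Zm00001d010079 was inside with a log2 difference of -1.0004 with TIS108, at 2.64 FPKM with TIS108 and 6.27 in the control. Zm00001d038780 was outside with -0.99, at 2.27 FPKM with TIS108 and 5.51 in the control. At the range limit, Zm00001d027932 was inside at 0.98 and Zm00001d027901 outside at 1.01, with 2.99 FPKM with nitrate, 7.05 with TIS108, 4.34 with nitrate and PCIB and 20.1 in the control. Of the members, 20 lay within 0.1 of the difference limit, and 28 other genes that passed the other limits missed it by under 0.1. Membership of such genes can turn on small differences that have no replicate check.

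The 9 genes left out by the range limit had the same direction in all 3 groups, as the difference limit required. Among them the lowest treated group was nitrate in 4, TIS108 in 3 and nitrate with PCIB in 2. They include genes far below the control in 1 treated group, such as Zm00001d008523 at 23.6 FPKM with nitrate, 8.78 with TIS108, 35.3 with nitrate and PCIB and 92.2 in the control. This example was chosen after its values were seen.

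Within the members, the 3 treated groups did not follow 1 common order. Nitrate was the lowest of the 3 in 39 members (65.0%), TIS108 in 13 (21.7%) and nitrate with PCIB in 8 (13.3%). Over all 14708 genes at this control level these shares were 28.3%, 29.9% and 41.8%. The commonest full order, in 26 members, ran from nitrate over nitrate with PCIB to TIS108, and 13 more ran from nitrate over TIS108 to nitrate with PCIB. TIS108 was the highest of the 3 in 31 members (51.7%), nitrate with PCIB in 21 (35.0%) and nitrate in 8 (13.3%), against 28.4%, 31.8% and 39.8% of all genes. The group that is highest of the 3 is the one the difference limit binds, and the rule also limits how far apart the 3 can lie, so these orders are in part set by the choice.

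The order differed with the level in the control. The 39 members lowest with nitrate had medians of 1.85 FPKM with nitrate, 2.80 with TIS108, 2.57 with nitrate and PCIB and 8.64 in the control, and 23 of them were under 10 FPKM in the control. The 13 members lowest with TIS108 were mostly of higher level, with medians of 11.1 FPKM with nitrate, 7.63 with TIS108, 10.0 with nitrate and PCIB and 38.5 in the control. All 5 members at 50 FPKM or more in the control were lowest with TIS108. Of all 4847 nuclear genes at 20.1 to 167 FPKM in the control, 58.6% were lower with TIS108 than with nitrate. How many of all genes at this level were lowest of the 3 with TIS108 was not counted, so nothing is read from these 5 members. The 8 members lowest with nitrate and PCIB had medians of 6.65 FPKM with nitrate, 5.49 with TIS108, 5.03 with nitrate and PCIB and 16.4 in the control.

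The same can be seen when TIS108 is set against nitrate in members ranked by control FPKM. In the 20 highest, at 20.1 to 167 FPKM in the control, TIS108 was below nitrate in 10 and above it in 10, with a median log2 difference of -0.01. After scaling all columns to an equal total that median was 0.0539, and the median over all genes at the control limit was 0.04. In the 20 in the middle, at 7.25 to 17.2 FPKM, TIS108 was above nitrate in 16, with a median of 0.36. In the 20 lowest, at 5.03 to 7.20 FPKM, it was above nitrate in 18, with a median of 0.47 and a median FPKM ratio of 1.74. All nuclear genes of the same control levels had medians of -0.05, -0.01 and -0.00103 in these 3 ranges. TIS108 was below nitrate in 58.6%, 51.2% and 50.2% of them, against 50%, 20% and 10% of the members. Among the members, 20 (33.3%) had a TIS108 value more than 0.5 above that of nitrate on the log2 scale and 3 more than 0.5 below, against 4.84% and 1.91% of all genes at the control limit. These differences enter the rule through the range limit and through the limit each group has to pass, and values of low genes are the less stable ones in an FPKM table. How far these facts shape the pattern was not tested.

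**Figure D3:**
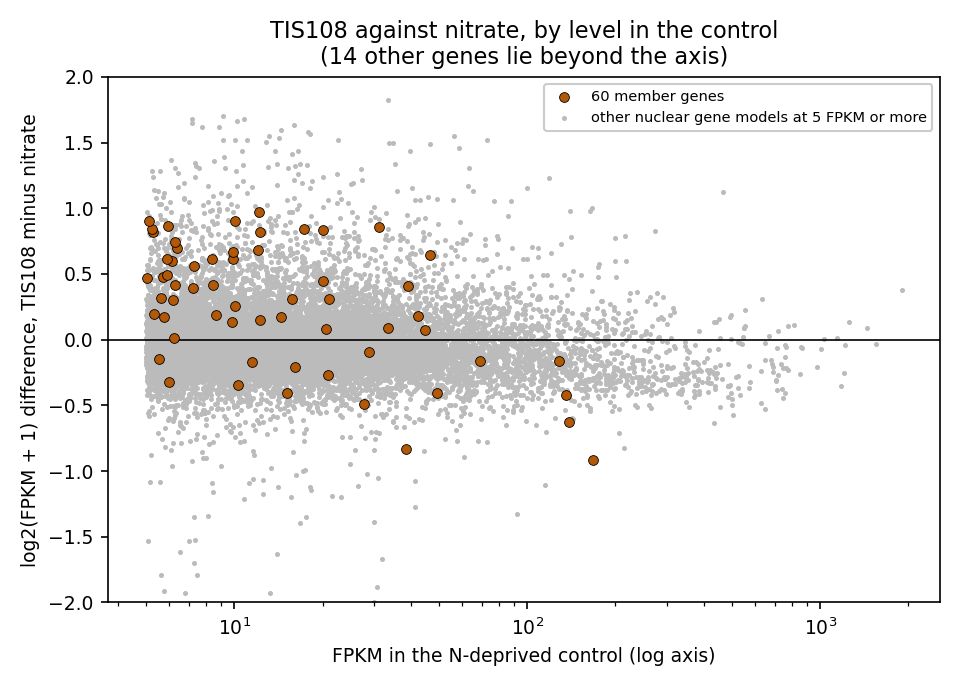
Log2(FPKM + 1) difference of TIS108 minus nitrate against FPKM in the N-deprived control (log axis), for the 60 members (large points) and the other nuclear gene models at 5 FPKM or more in the control (small grey points). Members at low control levels lie mostly above 0, with a median of 0.47 in the 20 lowest, and the 5 members at 50 FPKM or more lie below 0. Of all nuclear gene models at 20.1 to 167 FPKM in the control, 58.6% lie below 0.

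PCIB together with nitrate gave levels above those with nitrate alone in most members. The rule holds the 3 treated groups within a range under 1, so how close they lie is set by the choice. Their order is in part set by it too. The median log2 difference of nitrate with PCIB minus nitrate was 0.22, with 47 members above and 13 below nitrate, and reached from -0.58 to 0.80. Over all 14708 genes at the control limit the median was -0.04, with 6279 above 0 and 8429 below. A difference of at least 0.5 upward was seen in 14 members (23.3%) and downward in 2, where 9.41% and 3.75% of all genes had one. TIS108 minus nitrate with PCIB had a median of 0.06, with 34 members above 0 and 26 below, and reached from -0.67 to 0.98. Over all genes that median was 0.01, with 7748 of 14708 above 0, so by sign the members were split much as all genes were. More than 0.5 apart were 9 members (15.0%) upward and 4 (6.67%) downward, where 3.96% and 7.49% of all genes were. Past 0.5 the members thus leaned upward and all genes downward.

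Members were found at all control levels. At 5 to 10 FPKM in the control there were 27 (0.556% of 4858 genes at that level), at 10 to 20 FPKM 13 (0.284% of 4573), at 20 to 50 FPKM 15 (0.442% of 3395), and at 50 FPKM or more 5 (0.266% of 1882). Their FPKM summed to 490.6 with nitrate, 464.7 with TIS108, 509.8 with nitrate and PCIB and 1473 in the control. This was 0.105%, 0.104%, 0.105% and 0.296% of the FPKM of all entries in the same columns. The 4 most abundant members, Zm00001d031344, Zm00001d006650, Zm00001d021882 and Zm00001d025873, made up 44.6% of the member sum with nitrate, 31.7% with TIS108, 39.7% with nitrate and PCIB and 38.7% in the control. Without them the member sum was 271.8 with nitrate, 317.2 with TIS108, 307.4 with nitrate and PCIB and 902.1 in the control. TIS108 thus had the smallest of the 3 treated sums with these 4 genes and the largest without them. Zm00001d021882, at 47.2 FPKM with nitrate, 35.0 with TIS108, 55.2 with nitrate and PCIB and 136 in the control, and Zm00001d025873, at 45.2, 40.4, 47.4 and 129 FPKM in the same order, were chosen after their values were seen.

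No member was listed at 0 in any column, so all 60 had a value above 0 in every group. Under 1 FPKM were 8 members with nitrate, 0 with TIS108, 5 with nitrate and PCIB and 0 in the control. Over all 14708 genes at the control limit the lowest value with TIS108 was 1.02 FPKM. The 0 with TIS108 thus held for all these genes and is no trait of the members. Counts under 1 FPKM over all these genes were not made for the other groups. At 5 FPKM or more were 22 members with nitrate, 23 with TIS108, 25 with nitrate and PCIB and, by the rule, all 60 in the control. Over all 26451 entries, of any control level, these numbers were 14535, 14576, 14836 and 14929 in the same order. Each treated value had to lie at least 1 below the control on the log2 scale. The treated counts under 1 FPKM and at 5 FPKM or more are thus in part set by the choice.

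Some properties of the table were not used by the rule. No member shared all 4 values with another entry, as 78 entries of the table did. The first 11467 entries of the table are written with up to 3 decimals and the rest with more, and 25 of the members (41.7%) were in that first block, against 43.2% of all genes at the control limit. No pair of members had identifier numbers closer than 64, so the set held no runs of successive identifiers. Their positions in the genome are not given here.

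The pattern could also be asked of the other 390 entries, which are ENSRNA entries (RNA genes annotated by Ensembl), microRNA loci and organelle entries, and which are no members. At 5 FPKM or more in the control were 221 of them. Of these, 0 had the pattern and 72 were below the control in all 3 groups by any amount. Of the 14708 nuclear gene models at that level, 60 (0.408%) had it and 3891 were below the control in all 3 groups. At so small a share, 0 of 221 is not read as a result. The nearest apart from ENSRNA entries was trnL-b, a mitochondrial tRNA, at 10.0 FPKM with nitrate, 5.14 with TIS108, 5.19 with nitrate and PCIB and 18.0 in the control. It met the limit with TIS108 (-1.63) and with nitrate and PCIB (-1.62) and missed it with nitrate (-0.78). The next was the locus of MIR156k, of a family that targets SPL transcription factor genes, at 6.38 FPKM with nitrate, 4.92 with TIS108, 8.84 with nitrate and PCIB and 12.8 in the control. Only its difference with TIS108 met the limit (-1.23).

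The same limits were then applied to each other group, for genes that stood apart in 1 group and in 1 direction. High only in the control were the 60 members and low only in the control was 1 gene. With nitrate 9 genes were high only and 39 low only, with TIS108 0 and 0, and with nitrate and PCIB 159 and 28. With a pseudocount of 5 in place of 1 these numbers were 5 and 7 with nitrate and 109 and 7 with nitrate and PCIB, beside 16 genes high only in the control. For the low direction the lowest of the other 3 groups had to reach 5 FPKM. The control column had the largest total, 497447. After scaling all columns to an equal total, 41 genes were high only and 2 low only in the control, and 1 was high only with TIS108. The control thus stood apart almost solely upward, and nitrate with PCIB stood apart in more genes than the control. TIS108 stood apart in none with the columns as deposited. Whether a single replicate stands behind the control values cannot be seen in 1 column per group.

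**Figure D4:**
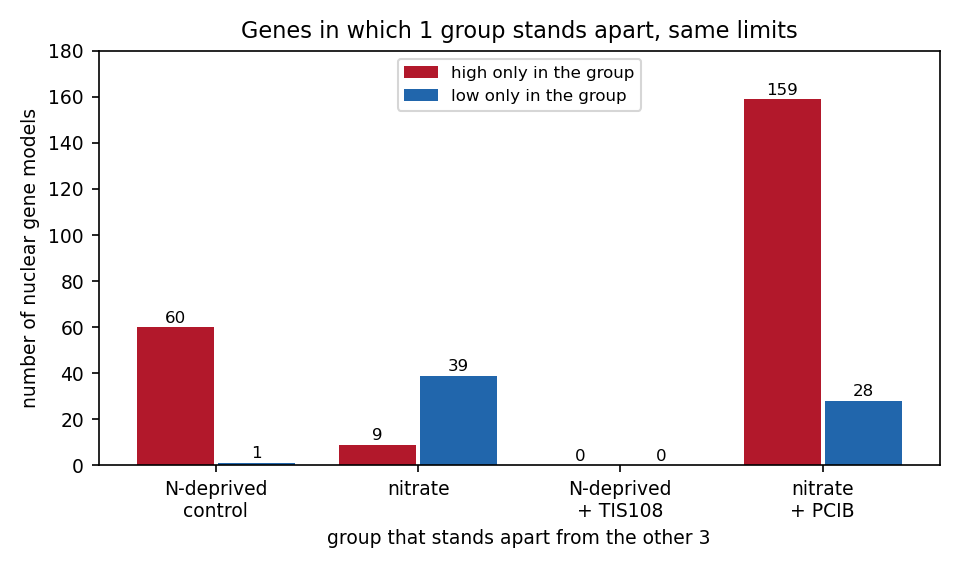
Number of nuclear gene models in which 1 group stood apart from the other 3 by the same limits, for genes high only (red) and low only (blue) in that group. The N-deprived control had 60 and 1, nitrate 9 and 39, TIS108 0 and 0, and nitrate with PCIB 159 and 28.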

How the data were processed

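Poly(A) RNA of 12 root samples was measured, 3 in each of 4 groups assigned by sample title. Libraries were paired-end TruSeq ones, per the labels' protocols. The submitters' processing notes name CASAVA 1.8, Trimmomatic 0.39, TopHat2 2.0.13 and the build B73 RefGen_v4, with no role or order. The authors deposited FPKM values with 1 column per group. The sources used here do not say which program computed them, with which annotation or filter, or how replicates were combined. There were 0 columns outside the groups. FPKM depends on annotated length and on the total of a column. Depth is unknown, as the table gives no counts.

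Levels were compared as log2(FPKM + 1); the pseudocount of 1 understates differences of low genes. The members and lists were chosen with earlier results of these data known. Named genes are the 2 members furthest below the control in each comparison, the 2 highest in the control, the 2 with the narrowest range, and the genes nearest to each limit; others are marked in the text. Names were looked up in a RefSeq gene table of Zm-B73-REFERENCE-NAM-5.0. Python 3.11.15, pandas 2.3.3 and numpy 2.4.6 were used, and the code for the rule was run on simulated data. These had an assumed noise and planted genes at a mean of 10 FPKM or more. They check the code and do not show how stable the members are. Alternatives were other pseudocounts, limits and scalings.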

Additional observations from a re-analysis of the deposited data

How the results depend on the processing

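The number of members was 76 with a pseudocount of 0.1, 41 with columns rescaled to the same sum, 48 after quantile normalization and 69 with no limit on the range, of which 47, 40, 46 and 60 were among the 60 members. It was 16 with a pseudocount of 5 (14 among the 60), 92 with no minimum level, 33 with a minimum of 10 FPKM, 10 with a difference of at least 1.5, 418 with a difference of at least 0.5 and 27 with a range under 0.5. The changed limits alter the number by their construction. With a pseudocount of 5 the median log2 difference of the members was -0.98 with nitrate, -0.85 with TIS108 and -0.92 with nitrate and PCIB, short of the 2-fold limit by the construction of that scale. Over the other 3 settings these medians lay past the limit, and over all settings they lay between -2.02 and -0.98, -1.55 and -0.85, and -1.58 and -0.92. Rescaling to the same sum moved the median over all genes at the control limit to 0.12 with nitrate, 0.15 with TIS108 and 0.03 with nitrate and PCIB. Nitrate was lowest of the 3 treated groups in 37 members with columns rescaled and in 31 after quantile normalization. The median of TIS108 minus nitrate in the 20 members highest in the control changed sign to 0.0539 with columns rescaled. The column totals were 469344 with nitrate and 447300 with TIS108, so rescaling raised TIS108 relative to nitrate by construction. In the 20 lowest it lay between 0.19 (pseudocount of 5) and 0.75 (pseudocount of 0.1). These settings for the order and the TIS108 to nitrate difference were chosen after seeing the data. The same holds for the other settings given for genes high only or low only in the other groups, and low only in the control. Of 120 differences of the 10 members that the naming rule chose, under 4 settings, 12 did not reach the 2-fold limit under a pseudocount of 5, 2 with columns rescaled and 3 after quantile normalization; the members named after their values were seen were not included. No paired analysis was possible because the table has 1 value per group with no replicate columns; for the same reason no replicate could be left out.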
